A study of Mus musculus with 18 samples.

Results

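Wnt ligands, their frizzled receptors, the Lrp5 and Lrp6 co-receptors and the secreted Wnt antagonists were measured by RNA sequencing in 3 mouse fat depots: inguinal white adipose tissue (iWAT), epididymal white adipose tissue (eWAT) and brown adipose tissue (BAT). Members were chosen by gene symbol alone: every Wnt and Fzd gene, Sfrp1 to Sfrp5, Dkk1 to Dkk4, Lrp5, Lrp6 and Wif1 with a row in the deposited files, which gave 40 genes of 45151 symbols shared by all samples. These are 19 Wnt ligands, 10 frizzleds, 2 co-receptors, 4 secreted frizzled-related proteins (Sfrp1, Sfrp2, Sfrp4 and Sfrp5), 4 Dickkopf genes and Wif1. The study concerned Gs signaling in fat, and these 18 samples came from untreated wild-type male C57BL/6J mice, 16 weeks old and fed regular chow, with 6 samples per depot, named here by the number in their titles, read as a mouse number. The iWAT and eWAT samples were adipocytes that floated after collagenase digestion, whereas the BAT samples were pieces of whole snap-frozen tissue, although the labels call them BAT adipocytes. Each difference between a white depot and BAT is therefore also a difference between digested, floated cells and intact tissue, and depot and preparation cannot be told apart. In bulk RNA, fewer cells of a type and less RNA per cell cannot be told apart either.

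Wnt proteins are secreted, lipid-modified ligands that bind a frizzled receptor together with Lrp5 or Lrp6, which prevents the destruction of beta-catenin and lets it activate TCF/LEF target genes. Some ligands, Wnt5a and Wnt11 among them, are best known for signaling that does not run through beta-catenin. Sfrp proteins and Wif1 bind Wnt ligands outside the cell and Dkk1, Dkk2 and Dkk4 bind Lrp5 and Lrp6, and canonical Wnt signaling is known to hold back the formation of new adipocytes.

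Fzd4 and Sfrp5 had the highest levels of all members in the white depots and also differed between the white depots and BAT, so the sequences before their start sites are shown. RefSeq promoters (mouse build GRCm38.p6) were found for 26 of the 40 members, and the 250 bases before the annotated start are printed for these genes, read in the direction of the gene, with each CpG dinucleotide in capitals. Sfrp5 lies on the minus strand (chr19:42202253-42202502) and Fzd4 on the plus strand (chr7:89404116-89404365).
Sfrp5: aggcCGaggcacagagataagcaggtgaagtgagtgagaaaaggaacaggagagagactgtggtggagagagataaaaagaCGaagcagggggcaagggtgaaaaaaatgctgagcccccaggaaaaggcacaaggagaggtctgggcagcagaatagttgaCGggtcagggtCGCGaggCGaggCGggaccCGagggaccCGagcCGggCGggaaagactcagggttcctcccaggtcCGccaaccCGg
Fzd4: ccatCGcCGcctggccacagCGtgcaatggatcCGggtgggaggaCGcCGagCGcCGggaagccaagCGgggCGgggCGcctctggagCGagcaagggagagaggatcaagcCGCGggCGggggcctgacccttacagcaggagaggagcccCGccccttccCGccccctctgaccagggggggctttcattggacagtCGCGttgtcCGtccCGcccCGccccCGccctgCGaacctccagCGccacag

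The Fzd4 window held 25 CpG dinucleotides and the Sfrp5 window 13, against a median of 6 over 32851 promoters and of 22 over the 29 promoters of members. Their GC contents were 72.8% and 59.6%. Neither window held the TATA box letters TATAAA on the gene's strand, which 7.59% of all promoters held. The TCF/LEF motif CTTTGAT, sought on both strands, was in neither window and in 3.21% of all promoters. The nuclear receptor motif AGGTCA was likewise in neither window, against 14.02% of all promoters. Of the 29 member promoters, 4 held TATAAA, 2 held CTTTGAT and 1 held AGGTCA.

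The samples had 22929576 to 34512470 reads behind their normalised values. Ucp1, which marks brown fat cells, had a mean of 1219 reads per kilobase of row length, scaled to library size (RPKM) in BAT, 2.82 in iWAT and 0.325 in eWAT, while the adipocyte hormone gene Adipoq was between 258 and 394 RPKM in BAT, between 1485 and 2147 in iWAT and between 868 and 2351 in eWAT. Some samples held markers of other tissue: the summed RPKM of 5 skeletal muscle genes was 1340 in BAT mouse 12 and at most 119 in the other BAT samples, that of 6 macrophage genes was 839 in eWAT mouse 15 against 66.4 to 179 in the other eWAT samples, and that of 5 epididymis genes was 76.1 and 70.9 in eWAT mice 14 and 15. All values for eWAT came from rows of single transcripts, whereas iWAT and BAT values came from rows that merge a gene's exons. The same row was used in all depots for 15 members, Fzd4, Fzd1, Fzd2, Fzd7 and Sfrp1 among them.

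Few members were expressed above traces (the heat map of all 40 members shows them by sample). A mean of at least 1 RPKM was reached by 8 members in iWAT, by 11 in eWAT, by 7 in BAT and by 11 in at least 1 depot. In iWAT the highest means were those of Fzd4, Sfrp5 and Lrp6, at 103, 52.3 and 12.1 RPKM. The same members led in eWAT, with Sfrp5 at 101, Fzd4 at 98.8 and Lrp6 at 12.7 RPKM, and the ranges of Sfrp5 and Fzd4 overlapped there. In BAT, Fzd4 at 21.1, Lrp6 at 5.79 and Fzd7 at 3.85 RPKM came first, and Sfrp5 had rank 10 with 0.749. A further 18 members stayed below a mean of 0.1 RPKM in every depot. Of these, 10 had fewer than 20 reads over all 18 samples, and Wnt3a, a ligand of the beta-catenin pathway, had none. A count of 0 allows up to 3 reads, which for Wnt3a was between 0.0278 and 0.0419 RPKM per sample, covering counting error only.

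**Figure D1:**
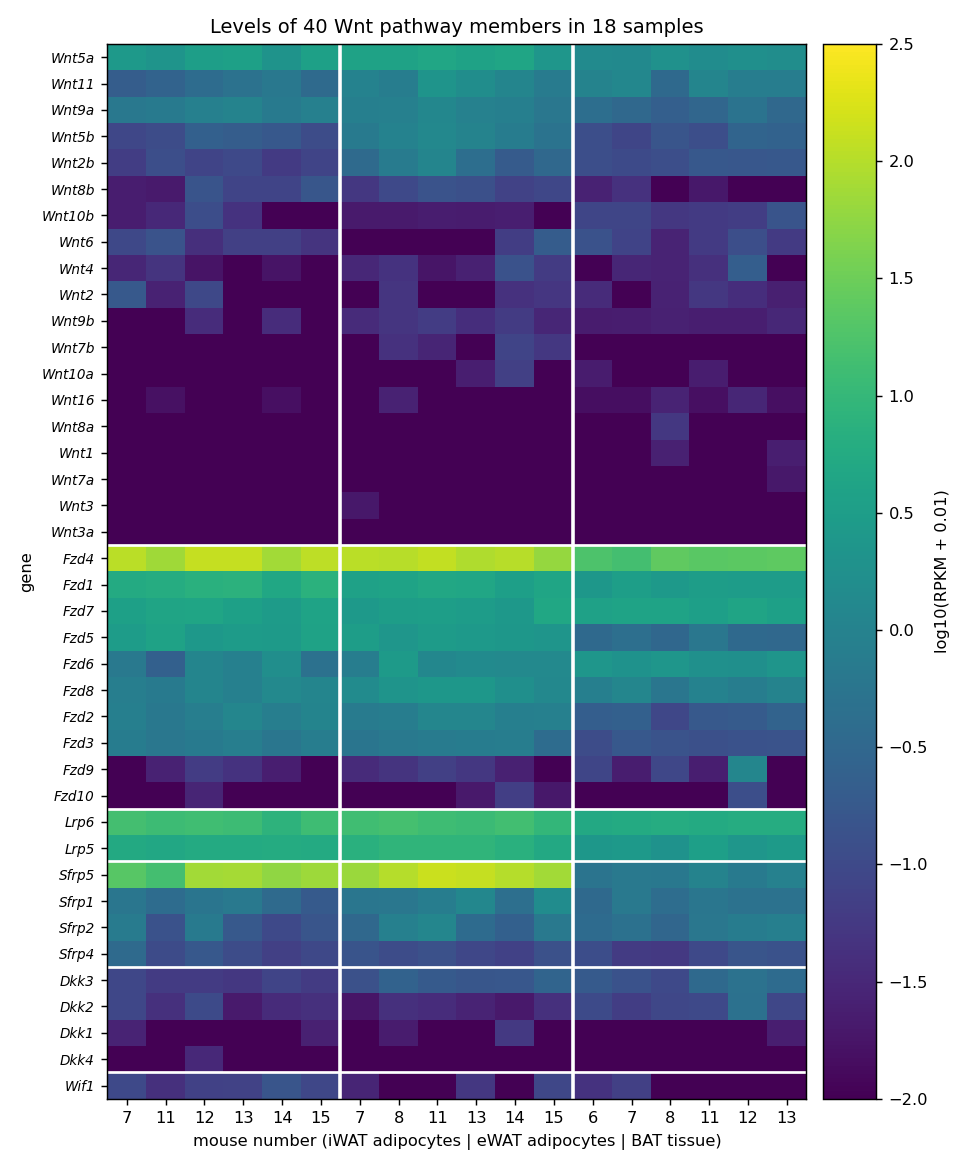
Heat map of log10(RPKM + 0.01) for the 40 members (rows, grouped by role) in 18 samples (columns, by mouse number within each depot). Fzd4 and Sfrp5 have the brightest rows, and Sfrp5 is dark only in the BAT columns, at 0.518 to 1.03 RPKM.

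**Figure D2:**
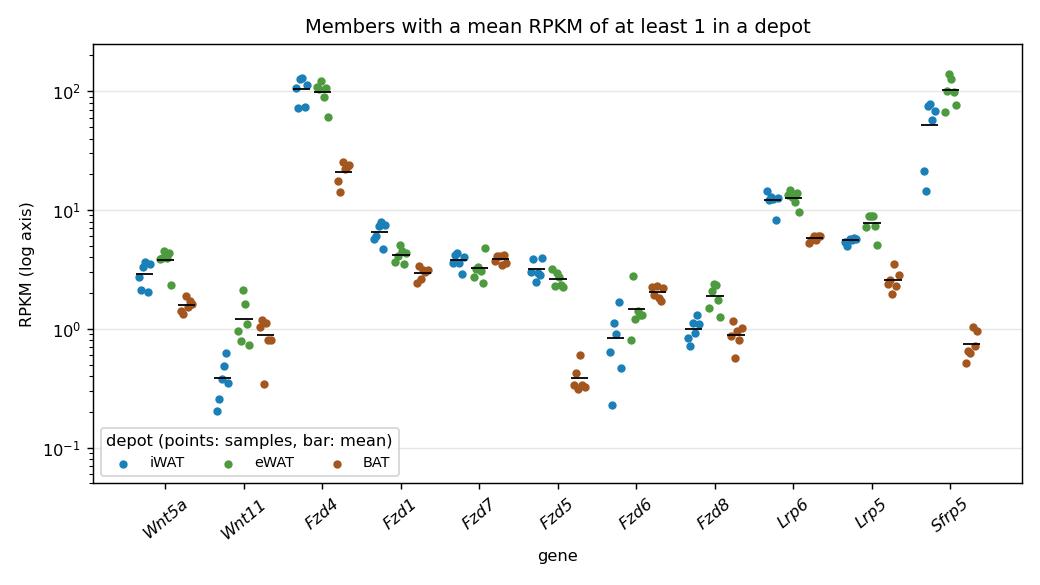
RPKM (log axis) of the 11 members with a mean of at least 1 RPKM in a depot; points are samples, short bars are means, and colours are depots. The iWAT and eWAT points of Sfrp5, Fzd4, Fzd5, Lrp5 and Lrp6 all lie above the BAT points, while the 3 depots overlap for Fzd7.

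Differences between depots were tested with edgeR's quasi-likelihood test on read counts, adjusted over all rows tested by the Benjamini-Hochberg method, and a member is called where the adjusted p is under 0.05. In iWAT against BAT, 19 members had enough reads to test, of which 10 were higher in iWAT, 4 were higher in BAT and 5 were not called. Over the 19733 rows tested, 34.0% were higher in iWAT and 33.6% were higher in BAT, so a call in either direction was common in this comparison. The median log2 fold change was 0.60 over the 19 members and 0.01 over all rows. The deposited RPKM values carry no such scaling: without the TMM factors, which balance the libraries, the median over all rows was 0.27, so iWAT over BAT ratios are lower in the test than in RPKM.

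In eWAT against BAT, 20 members were tested with reads divided by row length, and 13 were higher in eWAT and 1 was lower. Here 56.5% of the 18383 symbols tested were higher in eWAT and 21.3% were higher in BAT, and the median log2 fold change was 0.97 over the members and 0.59 over all symbols. Because the eWAT rows are shorter, the fit was repeated without dividing by length. There the median over all symbols was 0.15, and 12 members were higher in eWAT and 1 in BAT under both fits, against 40.1% and 21.2% of all symbols. Fzd8 was the member that lost its call without the length.

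In iWAT against eWAT, 1 of 20 members was higher in iWAT and 8 were higher in eWAT, against 6.34% and 44.4% of all symbols. Under both fits these counts were 1 and 6, against 5.62% and 10.6% of all symbols. The median over all symbols was -0.35 with the length and 0.04 without it, and over the members -0.38 and -0.06. The comparisons share samples, so their calls are not independent of each other.

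**Figure D3:**
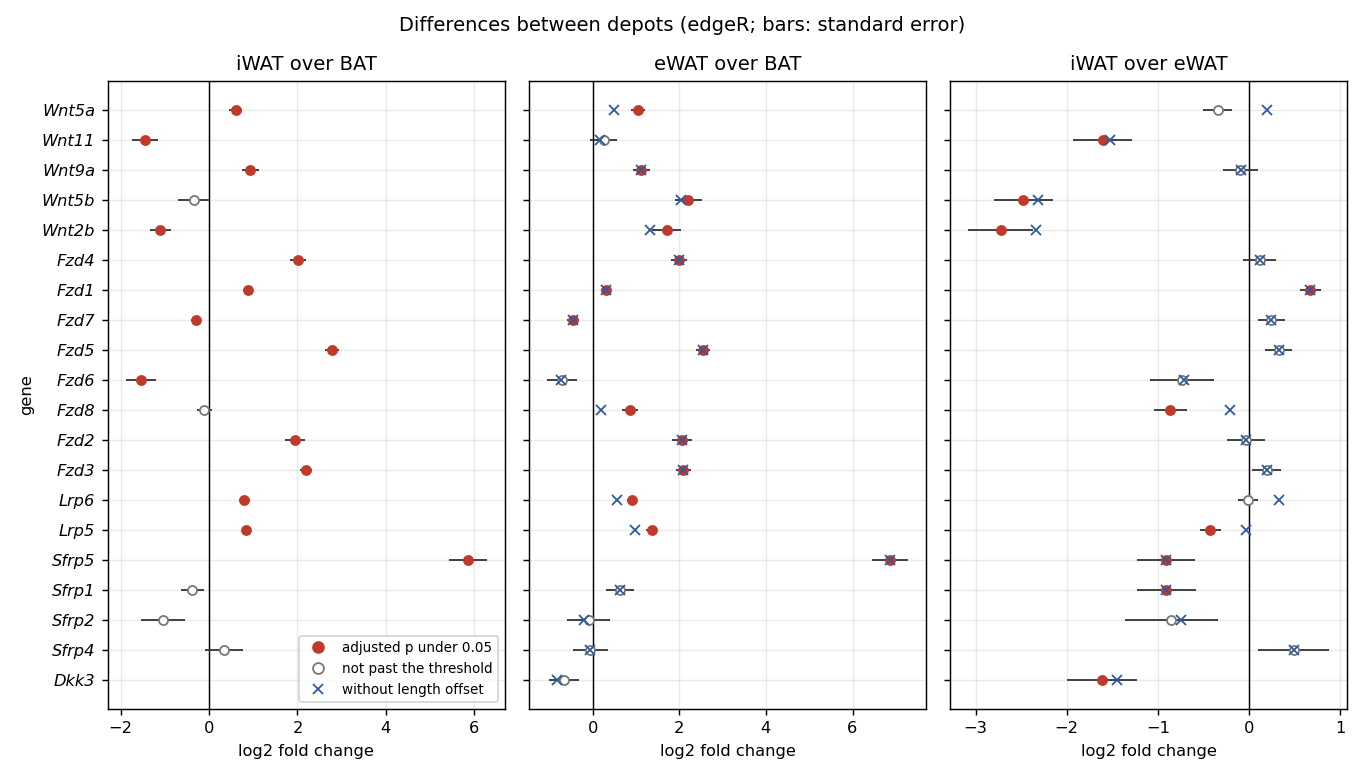
Log2 fold changes of the tested members in the 3 comparisons (circles with standard errors; filled circles have an adjusted p under 0.05), with crosses for the fit without row length in the 2 comparisons that use eWAT. Sfrp5 is farthest from 0 in the first 2 panels, at 5.86 and 6.87, and circles and crosses part most for Fzd8, Wnt5a, Lrp5, Wnt2b and Lrp6.

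Fzd4, the receptor for several Wnt ligands and for norrin, was the main frizzled of all depots (mm9 chr7:96552876-96558620, plus strand, 2 exons). Its RPKM values had a lowest, median and highest of 72.7, 109 and 129 in iWAT, 60.2, 105 and 122 for eWAT, and 14.2, 22.6 and 25.5 in BAT. Every white fat sample was thus above every BAT sample, and the white depots overlapped almost entirely. The log2 fold change was 2.02 in iWAT over BAT (SE 0.18, edgeR adjusted p = 2.78e-07) and 2.00 in eWAT over BAT (SE 0.19, edgeR adjusted p = 1.24e-08), about 4.06-fold and 3.99-fold. Between iWAT and eWAT it was 0.12 (SE 0.18, edgeR adjusted p = 0.622). As a share of the summed RPKM of the 10 frizzleds, Fzd4 had a median of 86.5% among iWAT, 87.3% among eWAT and 67.4% among BAT samples, and the highest BAT share of 71.3% lay below the lowest white fat share of 79.8%.

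**Figure D4:**
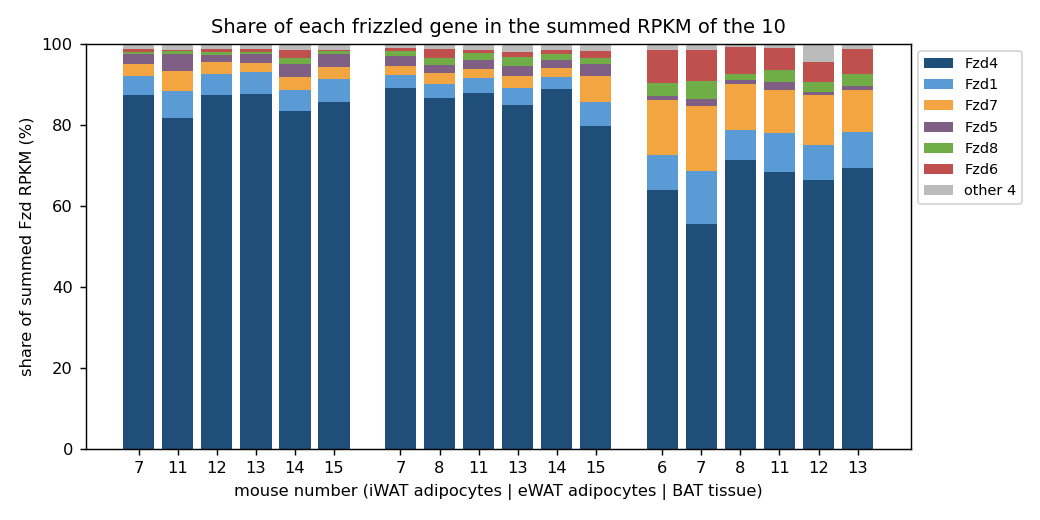
Share of each frizzled gene in the summed RPKM of the 10 frizzleds, as stacked bars from 0 to 100% for each sample, by mouse number within each depot. Fzd4 fills 79.8% to 89.2% of the white fat bars and 55.5% to 71.3% of the BAT bars, where Fzd7 and Fzd6 take larger parts; the grey part of BAT mouse 12 is mostly Fzd9.

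Fzd5, Fzd3 and Fzd2 were lower than Fzd4 in level and also higher in the white depots. Fzd5 was measured at 2.47, 2.99 and 3.98 RPKM (lowest, median, highest) in iWAT, 2.23, 2.55 and 3.20 across eWAT, and 0.314, 0.337 and 0.602 in BAT. No BAT sample came near a white fat sample, and the log2 fold changes over BAT were 2.78 for iWAT (SE 0.17, edgeR adjusted p = 4.16e-09) and 2.55 for eWAT (SE 0.16, edgeR adjusted p = 2.84e-11). Its iWAT over eWAT difference of 0.33 was not called (edgeR adjusted p = 0.0696), and was called with the replicate number as a block (adjusted p = 0.0359), without eWAT mouse 7 (0.39, adjusted p = 0.0397) or without iWAT mouse 12 (0.41, adjusted p = 0.0220), and with other samples left out it went down to 0.26 (adjusted p up to 0.168). Fzd3, best known for axon guidance and planar polarity, stayed below 1 RPKM, at 0.582 to 0.816 in iWAT, 0.373 to 0.802 in eWAT and 0.102 to 0.162 in BAT. Its log2 fold change was 2.20 for iWAT over BAT (SE 0.14, edgeR adjusted p = 5.99e-09). Fzd2, a receptor used by Wnt5a, had means of 0.888 ± 0.187 RPKM in iWAT, 0.938 ± 0.186 in eWAT and 0.192 ± 0.0622 in BAT (SD, n = 6 each). For Fzd2 the log2 fold change of iWAT over BAT was 1.94 (SE 0.23, edgeR adjusted p = 3.74e-06). Neither Fzd3 nor Fzd2 was called between iWAT and eWAT.

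Fzd1, a close relative of Fzd2 and Fzd7, was the only frizzled with a call in each of the 3 comparisons. It was at 4.71, 6.65 and 7.89 RPKM (lowest, median, highest) in iWAT, at 3.52, 4.25 and 5.04 in eWAT, and at 2.43, 3.06 and 3.35 in BAT. The order of the medians was iWAT, eWAT, BAT, with an overlap between iWAT and eWAT and none with BAT. The log2 fold change was 0.88 for iWAT over BAT (SE 0.11, edgeR adjusted p = 1.12e-05) and 0.67 for iWAT over eWAT (SE 0.12, edgeR adjusted p = 7.53e-05). That of eWAT over BAT was 0.30 (SE 0.12, edgeR adjusted p = 0.0254), and it lost its call when any of 6 samples was left out, BAT mice 6, 8, 11, 12 and 13 and eWAT mouse 11, with values down to 0.17 (adjusted p = 0.213).

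Fzd6 and Fzd7 went the other way. Fzd6, which is known from hair patterning and planar polarity, had 0.226, 0.771 and 1.67 RPKM (lowest, median, highest) in iWAT, 0.802, 1.30 and 2.80 among eWAT samples, and 1.71, 2.07 and 2.32 in BAT. The iWAT values spread widely, yet the highest lay just under the lowest BAT value, and the log2 fold change of iWAT over BAT was -1.54 (SE 0.34, edgeR adjusted p = 0.00103). In eWAT against BAT the value of -0.71 was not called (SE 0.34, edgeR adjusted p = 0.0657), but it was called without eWAT mouse 8, the highest eWAT sample (-0.96, adjusted p = 0.0156), and without BAT mouse 12 (-0.85, adjusted p = 0.0423), while other omissions brought it as near 0 as -0.58. Against eWAT, the iWAT value of -0.73 was not called (edgeR adjusted p = 0.0888), and was called without iWAT mouse 14 (-1.08, adjusted p = 0.00917) or eWAT mouse 7 (-0.86, adjusted p = 0.0490), whereas it was -0.48 without eWAT mouse 8 (adjusted p = 0.259). The highest Fzd6 samples of iWAT (mouse 14) and eWAT (mouse 8) also had the highest summed RPKM of 7 endothelial genes in their depots, 149 and 222. In iWAT mouse 11, the lowest in Fzd6, that sum was the lowest of iWAT, 26.2. BAT went the other way: mouse 8, its highest sample in Fzd6, had its lowest sum, 48.1. The part of endothelial cells in Fzd6 was not tested.

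Fzd7, a receptor prominent in stem cells, had 2.88, 3.84 and 4.35 RPKM in iWAT, 2.45, 3.13 and 4.79 over the eWAT samples and 3.43, 3.89 and 4.21 in BAT (lowest, median, highest). All depots overlapped, and the calls were for small differences: -0.30 for iWAT over BAT (SE 0.11, edgeR adjusted p = 0.0224) and -0.46 for eWAT over BAT (SE 0.15, edgeR adjusted p = 0.00858). Both calls were lost on the scale of the RPKM values, where the differences were -0.03 (adjusted p = 0.822) and -0.24 (adjusted p = 0.113). The iWAT call was also lost with the replicate block (-0.18, adjusted p = 0.218) and without iWAT mouse 13 (-0.28, adjusted p = 0.052). The eWAT sample of mouse 15, which had the high macrophage markers and also epididymis markers, was the highest of all in Fzd7. Without it the iWAT over eWAT difference was called, at 0.42 (adjusted p = 0.00275). That difference was 0.25 with all samples (adjusted p = 0.175) and 0.18 without eWAT mouse 14 (adjusted p = 0.347).

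Fzd8, which binds Wnt ligands with high affinity, was measured at 0.717 to 1.31 RPKM in iWAT, 1.25 to 2.39 in eWAT and 0.567 to 1.161 in BAT, with medians of 1.01, 1.93 and 0.920. The iWAT and BAT samples overlapped and the log2 fold change was -0.10 (SE 0.16, edgeR adjusted p = 0.589), which turned to 0.16 on the scale of the RPKM values (adjusted p = 0.445). The higher eWAT level depended on the row: its eWAT row had 63.3% of the merged length, and the difference to BAT was 0.86 with the length (SE 0.18, edgeR adjusted p = 0.000283) and 0.20 without it (adjusted p = 0.327). The same held for iWAT against eWAT, at -0.86 (SE 0.18, edgeR adjusted p = 0.000502) and -0.21 (adjusted p = 0.434). Fzd9 and Fzd10 did not have enough reads to test. BAT mouse 12 alone had 1.14 RPKM of Fzd9, the other BAT samples had at most 0.0817, and that sample also held the highest Fzd10 level, 0.109 RPKM, and the high skeletal muscle markers. Their part in these values was not tested.

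The co-receptors Lrp5 and Lrp6, which pass the canonical signal on together with a frizzled, were both higher in the white depots. Lrp6 was at 8.20, 12.5 and 14.5 RPKM (lowest, median, highest) in iWAT, at 9.59, 13.1 and 14.6 in eWAT, and at 5.24, 5.85 and 6.10 in BAT. Each white fat sample was above each BAT sample, and the log2 fold change was 0.80 in iWAT over BAT (SE 0.12, edgeR adjusted p = 3.76e-05). For eWAT over BAT it was 0.90 (SE 0.11, edgeR adjusted p = 8.26e-07) and 0.57 without the row length (adjusted p = 0.000234). Between iWAT and eWAT the value was -0.01 (SE 0.11, edgeR adjusted p = 0.945), and without the row length it was 0.33 (adjusted p = 0.0423), so no order of the white depots holds in both fits.

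Lrp5 gave 5.01, 5.65 and 5.86 RPKM in iWAT, 5.10, 8.11 and 8.96 for eWAT, and 1.96, 2.47 and 3.53 in BAT (lowest, median, highest). The iWAT samples were close together and well above those of BAT. The log2 fold change over BAT was 0.84 for iWAT (SE 0.09, edgeR adjusted p = 2.41e-06) and 1.36 for eWAT (SE 0.12, edgeR adjusted p = 4.26e-09), the latter 0.97 without the row length (adjusted p = 6.5e-07). A higher level in eWAT than in iWAT was called only with the row length, where iWAT over eWAT was -0.42 (SE 0.12, edgeR adjusted p = 0.00474); without it the value was -0.03 (adjusted p = 0.864).

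Sfrp5, a secreted protein that binds Wnt5a and is known as an adipokine of white fat, showed the largest difference of the tested members in both comparisons with BAT (mm9 chr19:42272461-42276742, minus strand, 3 exons). Its lowest, median and highest RPKM values were 14.6, 62.4 and 78.0 in iWAT, 67.1, 99.4 and 139 across eWAT, and 0.518, 0.678 and 1.03 in BAT. All 12 white fat samples were above all BAT samples by more than 10 RPKM. The log2 fold change was 5.86 for iWAT over BAT (SE 0.43, edgeR adjusted p = 3.31e-08) and 6.87 for eWAT over BAT (SE 0.42, edgeR adjusted p = 2.52e-11), which are 57.9-fold and 117-fold.

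The iWAT samples fell apart in Sfrp5: mice 7 and 11 had 21.4 and 14.6 RPKM, and the other iWAT samples had 56.9 to 78.0. The same pair had the highest macrophage marker sums of iWAT, 96.4 and 57.6 RPKM for 6 genes of which each was detected, against at most 21.0 in the others. In eWAT, mouse 7 was lowest in both, with a macrophage sum of 66.4 RPKM and 67.1 RPKM of Sfrp5. Mouse 15, with the highest macrophage sum of eWAT, 839, had 76.1 RPKM of Sfrp5. The part of these cells in the Sfrp5 values was not tested. The iWAT difference to BAT was as large without iWAT mouse 7 (6.03) or without iWAT mouse 11 (6.06). Between iWAT and eWAT, Sfrp5 was lower in iWAT, with overlapping samples and a log2 fold change of -0.91 (SE 0.32, edgeR adjusted p = 0.0216). Without eWAT mouse 11, the highest sample, this call was lost (-0.80, adjusted p = 0.0512). Without iWAT mouse 7 or 11 it was -0.76 (adjusted p = 0.0464) and -0.72 (adjusted p = 0.0253).

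The other Sfrp genes were at low levels, with means below 1 RPKM in all depots. Sfrp5 made up a median of 98.5% of the summed Sfrp RPKM in iWAT, 98.5% in eWAT and 39.4% in BAT. Sfrp1, which like Sfrp5 binds Wnt ligands, had medians of 0.473, 0.701 and 0.482 RPKM in iWAT, eWAT and BAT, and was called only between iWAT and eWAT (-0.91, SE 0.32, edgeR adjusted p = 0.0244). With the replicate block that call was lost (adjusted p = 0.0602), as it was without eWAT mouse 13 (adjusted p = 0.0588), eWAT mouse 15 (-0.63, adjusted p = 0.086) or iWAT mouse 15 (adjusted p = 0.0514). The eWAT over BAT value of Sfrp1, 0.63 (edgeR adjusted p = 0.0784), was called without eWAT mouse 14 (0.77, adjusted p = 0.0329) and on the scale of the RPKM values (0.82, adjusted p = 0.0230), but fell to 0.35 without eWAT mouse 15 (adjusted p = 0.276). Sfrp2 and Sfrp4 had overlapping samples in all depots, with medians from 0.158 to 0.533 RPKM and from 0.0982 to 0.110 RPKM, and neither was called in any comparison. Sfrp2 shared 16.1% of its exon bases with Gm16790, an antisense gene. In iWAT against BAT its value of -1.04 (adjusted p = 0.0771) was called without iWAT mouse 7 (-1.44, adjusted p = 0.0162) or iWAT mouse 12 (-1.37, adjusted p = 0.0311), and was -0.82 without iWAT mouse 14. Against eWAT, Sfrp2 was called without iWAT mouse 7 (-1.29, adjusted p = 0.0442), with -0.85 for all samples (adjusted p = 0.182) and -0.56 without eWAT mouse 11 (adjusted p = 0.402).

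Dickkopf genes and Wif1 were almost absent. Dkk1 and Dkk4, inhibitors of Lrp5 and Lrp6, had fewer than 20 reads each over all samples, and Wif1 stayed at or below 0.142 RPKM. Dkk2 had medians of 0.0314 RPKM in iWAT, 0.0229 in eWAT and 0.0851 in BAT, with 0.469 in BAT mouse 12, the sample with the skeletal muscle markers. Dkk3, a divergent family member, had 0.0438 to 0.0809 RPKM in iWAT, 0.123 to 0.273 in eWAT and 0.0893 to 0.478 in BAT. It could be tested in the 2 comparisons with eWAT, and was lower in iWAT than in eWAT, with no overlap (log2 fold change -1.61, SE 0.38, edgeR adjusted p = 0.00161). Every iWAT sample had only 4 to 9 reads, fewer than the 10 reads of the filter. Dkk3 was thus tested only through its reads in eWAT and BAT, so this call is not separate support for a low iWAT level. The eWAT over BAT value of -0.66 was not called (edgeR adjusted p = 0.0855), but was called without the row length (adjusted p = 0.0376) and without eWAT mouse 15 or BAT mouse 6, 7 or 8 (-0.90 to -0.82), and was -0.48 without BAT mouse 12 (adjusted p = 0.195).

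Wnt5a, a ligand of the branch that does not use beta-catenin and a binding partner of Sfrp5, was the most abundant Wnt gene in each depot. Values were 2.03, 3.04 and 3.67 RPKM (lowest, median, highest) in iWAT, 2.32, 3.95 and 4.52 among eWAT samples, and 1.34, 1.58 and 1.89 in BAT. The lowest white fat sample was thus just above the highest BAT sample in RPKM. For eWAT this rested on the row, which had 68.7% of the merged length: in reads scaled to library size alone (RPM), eWAT mouse 15 had 16.3 and BAT mouse 8 had 19.3, so these depots overlapped, while every iWAT sample, at 20.7 or more, was above BAT. The log2 fold change of iWAT over BAT was 0.60 (SE 0.16, edgeR adjusted p = 0.00356), and that of eWAT over BAT was 1.04 (SE 0.16, edgeR adjusted p = 1.18e-05) or, without the row length, 0.50 (adjusted p = 0.0107). Wnt5a made up a median of 64.0% of the summed RPKM of the 19 ligands in iWAT, 50.3% of it for eWAT and 44.5% for BAT. The iWAT over eWAT value was -0.34 with the row length (SE 0.16, edgeR adjusted p = 0.084) and 0.20 without it (adjusted p = 0.401). With the length it was called without eWAT mouse 15 (-0.44, adjusted p = 0.0173) or iWAT mouse 13 (-0.43, adjusted p = 0.0395), and it was -0.27 without iWAT mouse 11 (adjusted p = 0.189). Of its exon bases, 4.58% were shared with the antisense gene Gm2670.

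Wnt11, another ligand of that branch, had its lowest level in iWAT. Its RPKM values were 0.204, 0.364 and 0.624 in iWAT, 0.734, 1.03 and 2.11 over the eWAT samples, and 0.340, 0.922 and 1.20 in BAT (lowest, median, highest). All iWAT samples lay below all eWAT samples, whereas BAT mouse 8, at 0.340, fell among the iWAT samples. On the log2 scale the difference was -1.45 for iWAT over BAT (SE 0.29, edgeR adjusted p = 0.000581), -1.60 for iWAT over eWAT (SE 0.32, edgeR adjusted p = 0.000363), and 0.25 for eWAT over BAT (SE 0.31, edgeR adjusted p = 0.459). Exons of Wnt11 shared 10.0% of their bases with Gm8398 on the opposite strand.

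Wnt9a, a ligand known from joint formation, was below 1 RPKM on average. It had 0.616 to 1.01 RPKM in iWAT, 0.588 to 1.22 in eWAT and 0.225 to 0.503 in BAT, so that the white depots overlapped each other and not BAT. On the log2 scale Wnt9a differed by 0.94 in iWAT over BAT (SE 0.20, edgeR adjusted p = 0.00072) and 1.12 in eWAT over BAT (SE 0.20, edgeR adjusted p = 3.76e-05).

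Wnt2b and Wnt5b were the ligands with the largest differences between the white depots. Wnt2b, which signals through beta-catenin, had 0.0472, 0.0739 and 0.109 RPKM in iWAT, 0.189, 0.377 and 1.10 for eWAT, and 0.0938, 0.135 and 0.166 in BAT (lowest, median, highest). In RPKM every eWAT sample was above all others, but its row had 76.5% of the merged length, and in RPM eWAT mouse 14, at 0.676, was below BAT mouse 13, at 0.776. Every eWAT sample stayed above the highest iWAT sample, at 0.508 RPM. Its log2 fold change was -2.72 for iWAT over eWAT (SE 0.36, edgeR adjusted p = 3.02e-06) and 1.71 for eWAT over BAT (SE 0.33, edgeR adjusted p = 0.000132). Against BAT, iWAT was lower, at -1.10 (SE 0.24, edgeR adjusted p = 0.000972). Wnt5b, the closest relative of Wnt5a, had 0.0821 to 0.234 RPKM in iWAT, 0.515 to 1.24 in eWAT and 0.0769 to 0.267 in BAT. No eWAT sample of Wnt5b overlapped with another depot, also in RPM, where the lowest eWAT sample had 1.22 and the highest of the others 0.708. For Wnt5b the log2 fold change was -2.48 for iWAT over eWAT (SE 0.32, edgeR adjusted p = 2.92e-06) and 2.21 for eWAT over BAT (SE 0.32, edgeR adjusted p = 4.2e-06). Without the row length the iWAT over eWAT values were -2.34 for Wnt2b (adjusted p = 0.000114) and -2.31 for Wnt5b (adjusted p = 5.01e-05).

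Markers of several other cell types were higher in eWAT as well. All 7 mesothelial markers were detected in eWAT, with sums of 16.5 to 32.4 RPKM, against 3.71 to 4.59 in iWAT and 11.1 to 13.4 in BAT, but Lrrn4 alone made up 99.4% of the mean sum in iWAT and 99.8% in BAT. Lrrn4 had 3441 reads in eWAT and 15113 in BAT, so its higher RPKM in eWAT came with a shorter row. The 6 other markers, set apart after their values were seen, had a summed mean of 6.98 RPKM in eWAT, 0.0243 in iWAT and 0.0280 in BAT. Msln, which encodes mesothelin, had a mean of 1.32 RPKM in eWAT, no read in iWAT and 2 reads in BAT, and Upk1b and Muc16 had no read in iWAT or BAT. Mouse 11 had both the highest mesothelial sum and the highest Wnt2b level, 1.10 RPKM. That sample was also the highest eWAT sample in Sfrp5, Fzd4, Wnt5a, Wnt5b, Wnt9a and Wnt11, so the match was not particular to Wnt2b.

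Sums of 7 fibroblast and preadipocyte markers, each of which was detected, were 47.6 to 118 RPKM in eWAT, 25.9 to 42.2 in iWAT and 24.9 to 33.2 in BAT. Dcn, which encodes decorin, made up 54.2% of the mean eWAT sum, with 15598 reads in eWAT and 15734 in BAT. The markers did not all go one way: the eWAT mean was the higher one for 5 of 7 against iWAT and for 4 of 7 against BAT, and Pi16 had a mean of 0.218 RPKM in eWAT, 1.04 in iWAT and 2.26 in BAT. Macrophage sums were 66.4 to 839 RPKM in eWAT, 14.97 to 96.4 in iWAT and 10.6 to 20.1 in BAT. Endothelial sums were 86.8 to 222 RPKM in eWAT, 26.2 to 149 in iWAT and 48.1 to 94.6 in BAT, and those of smooth muscle and pericytes were 104 to 202, 36.2 to 118 and 75.8 to 120 in the same order. In summed reads, the endothelial markers Kdr, Tek and Tie1 were lower in eWAT than in BAT, while Pecam1, Cdh5, Vwf and Emcn were higher. The part of these cell types in Wnt2b, Wnt5b, Wnt11, Dkk3, Sfrp1 and Fzd6 was not tested. Without eWAT mice 14 and 15 and BAT mouse 12, the Wnt2b and Wnt5b differences between iWAT and eWAT were -3.03 and -2.63.

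The remaining 14 ligands did not have enough reads to test. Wnt8b, Wnt10b, Wnt6, Wnt4, Wnt2, Wnt9b and Wnt7b had mean levels of at most 0.0882 RPKM in each depot. Wnt10b, which is known to block adipocyte formation, had 47 reads over the BAT samples, 18 over those of iWAT and 5 over those of eWAT. All 18 reads of Wnt7b came from eWAT, 7 of them from mouse 14 and 5 from mouse 15, the samples with the high epididymis markers. Mice 8 and 11 gave 4 and 2 reads. The part of epididymis cells in these reads was not tested. Wnt1, Wnt3, Wnt3a, Wnt7a, Wnt8a, Wnt10a and Wnt16 had fewer than 20 reads each in all.

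Of 70 further genes of the pathway, 69 were in the files. In iWAT against BAT, 25 of 53 tested genes were higher in iWAT and 15 were higher in BAT, with a median log2 fold change of 0.16. In eWAT against BAT, 32 of 54 were higher in eWAT and 9 in BAT, or 25 and 9 under both fits. Between iWAT and eWAT, 7 were higher in iWAT and 30 in eWAT, or 7 and 8 under both fits. Over all rows tested, these directions were called in 34.0% and 33.6%, 40.1% and 21.2% (both fits), and 5.62% and 10.6% (both fits). Wls, which carries Wnt ligands to the cell surface, had 8.28 to 9.21 RPKM in iWAT and 2.72 to 3.13 in BAT, a log2 fold change of 1.34 (SE 0.07, edgeR adjusted p = 5.72e-10).

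The R-spondin receptors Lgr4 and Lgr6, which help to protect frizzleds from removal, moved in opposite directions. Lgr4 had a mean of 4.84 RPKM in iWAT, where the lowest sample had 3.40, and 1.56 in BAT (log2 fold change 1.35, SE 0.18, edgeR adjusted p = 1.5e-05). Lgr6 had 6.90, 9.13 and 12.9 RPKM (lowest, median, highest) in BAT, at most 0.046 in iWAT and at most 0.0237 in eWAT. In reads this was 12278 over the BAT samples, 28 over those of iWAT and 8 over those of eWAT. The log2 fold change of iWAT over BAT was -8.83 (SE 0.27, edgeR adjusted p = 1.32e-11). Its 28 iWAT reads were too few for the filter, so Lgr6 was tested only through its BAT reads. This call is therefore not separate support for a low iWAT level.

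Within the cytoplasmic part, 5 of 14 destruction complex and Dishevelled genes were higher in iWAT than in BAT and 5 were lower. Over all rows tested, 34.0% were higher in iWAT and 33.6% in BAT. Apc, a scaffold that helps to destroy beta-catenin, was higher at 1.13 (SE 0.13, edgeR adjusted p = 2.92e-06) and Tnks, which helps to degrade axin, at 1.02 (SE 0.09, edgeR adjusted p = 1.57e-07). Dvl2, the adaptor that binds activated frizzleds, was at 115 to 142 RPKM in BAT and 14.6 to 17.3 in iWAT, a log2 fold change of -3.28 (SE 0.09, edgeR adjusted p = 7.9e-12). Its exons share 19.7% of their bases with Acadvl on the opposite strand and with Mir324, and as no strand-specific kit was stated, reads of Dvl2 and Acadvl cannot be told apart there.

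Among 12 tested nuclear factors, 7 were higher in iWAT than in BAT and 2 were lower. Tle3, a co-repressor, was higher at 1.30 (SE 0.15, edgeR adjusted p = 4.23e-06), Tcf7l1, a TCF factor, at 1.18 (SE 0.16, edgeR adjusted p = 1.2e-05) and Bcl9l, a co-activator of beta-catenin, at 1.10 (SE 0.16, edgeR adjusted p = 2.68e-05). Of the 9 tested target and feedback genes, 6 were higher in iWAT and 2 in BAT. The shares over all rows tested were again 34.0% and 33.6%, and these groups are small. Apcdd1, a membrane inhibitor of the pathway, had 22.6 to 39.0 RPKM in iWAT and 0.444 to 0.873 in BAT, a log2 fold change of 5.48 (SE 0.21, edgeR adjusted p = 6.23e-11). Myc, which also responds to many stresses, had 33.6 to 80.7 RPKM in iWAT, 24.6 to 55.2 in eWAT and 0.314 to 1.61 in BAT. The high samples were both the white and the digested ones, so depot and preparation cannot be told apart, and the cause was not tested. Twist1 rose less, by 1.22 (SE 0.10, edgeR adjusted p = 1.26e-07).

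Axin2 and Nkd1, both feedback inhibitors, fell outside the rule for naming and were picked after their values were seen. Nkd1 had 1.95 to 4.47 RPKM in iWAT and 0.109 to 0.249 in BAT, with a log2 fold change of 4.12 (SE 0.24, edgeR adjusted p = 3.4e-09). Axin2 was instead lower in iWAT, at 1.34 to 3.31 RPKM against 2.08 to 3.36 in BAT, with a log2 fold change of -0.50 (SE 0.17, edgeR adjusted p = 0.02) that lost its call with the replicate block (-0.28, adjusted p = 0.236). In the planar polarity group, 3 of 7 tested genes were higher in iWAT than in BAT and 1 was lower, against 34.0% and 33.6% of all rows. Celsr2, a cadherin of that pathway, was higher in iWAT than in BAT by 2.87 (SE 0.26, edgeR adjusted p = 2.68e-07) and than in eWAT by 2.45 (SE 0.27, edgeR adjusted p = 3.08e-07), and Daam1, which links Dishevelled to actin, was higher in iWAT than in BAT by 1.25 (SE 0.13, edgeR adjusted p = 9.64e-07). Further genes met the rule in comparisons with eWAT. Kremen1, a receptor for Dickkopf proteins, and Csnk1a1, a kinase of the destruction complex, were higher in eWAT than in BAT by 1.70 (SE 0.08, edgeR adjusted p = 8.8e-13) and 1.65 (SE 0.07, edgeR adjusted p = 3.54e-13), or by 0.36 and 0.44 without the row length. Ccnd1, a cyclin gene that shares 21.3% of its exon bases with Oraov1, was lower in iWAT than in eWAT at -1.60 (SE 0.44, edgeR adjusted p = 0.00469). Its samples overlapped, at 1.15 to 4.26 RPKM in iWAT and 2.26 to 13.2 in eWAT.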

How the data were processed

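Per the labels, RNA of the 18 samples was sequenced on an Illumina HiSeq after an NEBNext Ultra RNA library preparation, and the authors used the Genomatix Genome Analyzer with mouse build mm9; the submitters' processing notes name cutadapt 1.16 and HISAT2 2.1.0. The deposited files give read counts and RPKM per row: 53445 merged gene rows for iWAT and BAT, and 189660 transcript rows for eWAT, of which 27301 rows are shared. The RPKM values, which the authors derived from the counts, divide them by row length and a single total per sample, used here as depth. For eWAT, the transcript row with most reads was used per symbol. Members and gene lists were chosen with earlier results of these data known.

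Counts were tested with edgeR 4.0.16 (R 4.3.3; glmQLFit, glmQLFTest, TMM factors) over rows that reached 10 reads in 6 or more samples. iWAT against BAT used 12 samples. Comparisons with eWAT used all 18, an offset for row length and TMM factors from shared rows, and were repeated without length. The scripts were tested on simulated data. A standard error is the log2 fold change divided by the square root of the F statistic. Alternatives used limma 3.58.1, DESeq2 1.42.0, other filters, a replicate block and left-out samples. Members with a mean of at least 1 RPKM in a depot were named in full, and other members where called in iWAT against BAT or singled out. Pathway genes were named at a mean of at least 5 RPKM with a log2 fold change of at least 1, at most 4 per direction and group. Samples had 22929576 to 34512470 reads. The p-values measure the spread between these samples, since the labels do not state how mice relate to replicate numbers. Deviations of same-numbered samples correlated at 0.029 on average in iWAT and BAT (4 pairs), -0.030 in eWAT and BAT (4 pairs) and -0.037 in iWAT and eWAT (5 pairs).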

Additional observations from a re-analysis of the deposited data

Results flagged for a closer look

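A search for single samples far from the others of their depot covered 59 combinations of member and depot with a mean of at least 0.1 RPKM and found 6. Chance flags about 1 in 20 such groups, but Fzd9 and Dkk2 in BAT reached that mean only through the far sample itself, the others being at most 0.0817 and 0.0938 RPKM, so the number found cannot be set against this share. Dkk2 (0.469 RPKM) and Fzd9 (1.14 RPKM) were far above the other BAT samples in mouse 12, whose skeletal muscle marker sum was 1340 RPKM against at most 119 in the other BAT samples. In eWAT mouse 15, whose macrophage marker sum was 839 RPKM against at most 179, Fzd7 was high at 4.79 RPKM and Wnt5a low at 2.32 RPKM. That sample also had an epididymis marker sum of 70.9 RPKM and the lowest Adipoq level of eWAT, 868 RPKM. Fzd6 was high at 2.80 RPKM in eWAT mouse 8, and Sfrp4 at 0.355 RPKM in iWAT mouse 7. The part of the marked cells in these values was not tested.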

How the results depend on the processing

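Of the called members, 13 of 14 in iWAT against BAT, 11 of 14 in eWAT against BAT and 5 of 9 in iWAT against eWAT kept direction and call under each alternative that gave a value; the others were Fzd7, then Fzd1, Fzd7 and Fzd8, then Fzd8, Lrp5, Sfrp1 and Sfrp5, and none of the called members turned direction. With the replicate block the counts of called members were 13, 14 and 9. Over all rows tested, 11711 of 19733, 13130 of 18383 and 8445 of 18383 were called with that block. At an absolute log2 fold change of at least 1, the called members fell to 8 in iWAT against BAT. They fell to 10 in eWAT against BAT and to 4 in iWAT against eWAT. The share of all rows past that cut is not given here, so these numbers are not read as a trait of the members. Among members with a mean of at least 1 RPKM, 9 of 9, 9 of 11 and 5 of 11 tested were called in the same order. Over all rows with that mean, 10310 of 14598, 11406 of 13870 and 7908 of 13870 were called. On shared rows only 6 members were tested, and 4 and 1 were called in the eWAT comparisons. Of all 5733 shared rows tested, 3888 and 737 were called. Pathway genes called between iWAT and eWAT fell from 37 to 23 without the row length and to 19 without it and with the replicate block. Over all 18383 symbols tested, the calls fell from 9324 to 4743 and to 3284 under the same fits, so the drop was general. Members counted as expressed rose to 18, 20 and 21 in iWAT, eWAT and BAT at a minimum of 0.1 RPKM and to 13, 18 and 11 at 0.5 RPKM.

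Directions turned only among uncalled members. Fzd8 in iWAT against BAT turned to 0.157 with the library size without TMM, an alternative added after seeing the data, and to 0.145 and 0.0761 with limma on log2(RPKM + 0.1) and log2(RPKM + 1). In eWAT against BAT, under the replicate block, the same 3 scalings and the removal of BAT mouse 12 and eWAT mice 14 and 15, Sfrp2 turned to 0.266, 0.121, 0.00425, 0.0252 and 0.134, and Sfrp4 to 0.277, 0.162, 0.0941, 0.0148 and 0.113. Without the row length, iWAT against eWAT turned to 0.326 for Lrp6, which was then called, and to 0.197 for Wnt5a. With a sample left out, values ran in iWAT against eWAT from -0.117 to 0.0619 (Fzd2), -0.097 to 0.0707 (Lrp6), -0.0309 to 0.644 (Sfrp4) and -0.176 to 0.012 (Wnt9a), in eWAT against BAT from -0.383 to 0.0759 (Sfrp2) and -0.255 to 0.047 (Sfrp4), and in iWAT against BAT from -0.146 to 0.506 (Sfrp4). The cause was not tested. Depth limits the 20 or 21 members too low to test, and the eWAT row type limits comparisons with eWAT for members whose rows differ.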
